A study of Homo sapiens with 14 samples.

Results

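The 34 genes described here encode the glycolytic pathway and a set of transcripts that low oxygen induces through hypoxia-inducible factor (HIF). They were chosen by symbol from knowledge of the pathway: 15 genes for the enzymes from hexokinase to pyruvate kinase, LDHA and LDHB, the glucose carriers SLC2A1 and SLC2A3, the lactate carriers SLC16A1 and SLC16A3, the regulators PFKFB3, PFKFB4, PDK1 and PDK3, the hypoxia-induced genes VEGFA, ADM, BNIP3, BNIP3L, NDRG1, ANKRD37 and CA9, and the HIF subunits HIF1A and ARNT. The choice was made with earlier results of these data known, so it cannot be taken as independent of them. All 34 were listed among the 26171 genes of the K562 table and the 19196 genes of the SIGM5 table.

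Polyadenylated RNA was sequenced in 14 libraries, 2 for each of 7 groups, from established human leukaemia lines treated for 24 h. SIGM5, an acute myeloid leukaemia line, received the solvent DMSO or 12.5 µM TETi76, a compound that the series presents as an inhibitor of TET dioxygenases, the enzymes that oxidise 5-methylcytosine with 2-oxoglutarate, iron and oxygen. K562, an erythroleukaemia line, was used as clone K01 (TET2+/+), given DMSO, 12.5 µM TETi76, 100 µM ascorbate, or TETi76 and ascorbate together, and as clone K18 (TET2-/-), given DMSO only. Each genotype was 1 clone, so TET2 genotype and clone cannot be told apart, and the labels number the replicates without saying that they were separate cultures, so p-values measure variation between libraries, which may be only technical.

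Glycolysis converts glucose to pyruvate, and lactate dehydrogenase then reduces pyruvate to lactate, which leaves the cell through monocarboxylate carriers. HIF is a pair of an oxygen-labile alpha subunit and the stable subunit ARNT. Prolyl hydroxylases, which like the TET enzymes use 2-oxoglutarate, iron and oxygen, mark the alpha subunit for destruction by the VHL ubiquitin ligase. When hydroxylation stops, HIF binds the core motifs ACGTG and GCGTG and raises transcription of most glycolytic genes and of genes such as VEGFA and CA9. RNA levels do not report HIF1A protein, which is controlled mainly by its stability.

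Promoter sequences are shown for 4 enzymes because their transcripts moved in different directions in the same libraries: PKM and ENO1 rose with TETi76, PGK1 fell, and LDHA fell in the presence of ascorbate. The sequences are the 250 bases upstream of a transcription start in RefSeq (GRCh38.p14), written 5′ to 3′ on the strand of the gene, with each ACGTG or GCGTG on either strand in capitals. They lie at chrX:78103998-78104247 (plus strand) for PGK1, chr11:18394313-18394562 (plus) for LDHA, chr1:8878687-8878936 (minus) for ENO1 and chr15:72231191-72231440 (minus) for PKM.
PGK1: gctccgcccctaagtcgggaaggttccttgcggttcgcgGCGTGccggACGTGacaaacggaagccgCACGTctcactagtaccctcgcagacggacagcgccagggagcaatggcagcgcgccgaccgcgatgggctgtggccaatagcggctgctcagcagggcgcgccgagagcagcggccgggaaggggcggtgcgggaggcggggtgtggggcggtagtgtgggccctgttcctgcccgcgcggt
LDHA: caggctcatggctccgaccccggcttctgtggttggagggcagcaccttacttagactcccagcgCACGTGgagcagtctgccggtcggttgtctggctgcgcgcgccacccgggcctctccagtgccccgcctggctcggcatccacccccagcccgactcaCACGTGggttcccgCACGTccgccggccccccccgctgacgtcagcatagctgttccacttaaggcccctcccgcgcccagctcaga
ENO1: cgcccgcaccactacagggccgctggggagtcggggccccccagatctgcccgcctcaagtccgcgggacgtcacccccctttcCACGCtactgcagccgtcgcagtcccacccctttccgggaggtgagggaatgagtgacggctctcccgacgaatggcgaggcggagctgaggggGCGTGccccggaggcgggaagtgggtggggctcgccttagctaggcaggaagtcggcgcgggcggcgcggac
PKM: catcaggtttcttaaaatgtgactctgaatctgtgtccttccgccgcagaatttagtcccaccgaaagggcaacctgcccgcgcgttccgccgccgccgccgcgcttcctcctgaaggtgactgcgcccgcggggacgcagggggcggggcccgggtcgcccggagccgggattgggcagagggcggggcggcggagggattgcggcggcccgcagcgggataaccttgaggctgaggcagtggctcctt

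Counting both strands, PGK1 held 2 matches to ACGTG and 1 to GCGTG, LDHA 5 and 0, ENO1 0 and 2, and PKM 0 and 0. The palindrome CACGTG, which MYC and USF proteins also bind, contains ACGTG on both strands, so each of its occurrences in LDHA counted as a pair. LDHA has a further listed start with 0 matches to ACGTG and 1 to GCGTG. Of the 34 genes, 29 matched the RefSeq promoter table, with 56 promoters among 35116. ACGTG was present in 37.5% of the 56 and in 18.5% of all, GCGTG in 32.1% and 32.2%, either motif in 57.1% and 43.2%, and CACGTG in 14.3% and 6.35%. These are letter matches in a fixed window and show no binding.

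SIGM5 library totals were 18893636 to 23639198 counts. The K562 values were FPKM, reads scaled by gene length and library size, which give no totals, and the value of 1 read placed the other libraries at 52.5% to 96.9% of the depth of K01 DMSO library 1. All 10 erythroid markers had a mean of at least 1 FPKM in K562, and all 10 myelomonocytic markers at least 1 CPM (counts scaled to the library total) in SIGM5, where HBG1, HBG2, HBE1 and HBZ were at 0. The 10 erythroid markers, a sum made up mostly of globin transcripts, were at 8374 to 9648 FPKM in K01 with DMSO, 7925 to 8278 with TETi76, 9719 to 10136 with ascorbate, 6780 to 7017 with both, and 4471 to 4673 in K18. Their members differed: HBE1, the embryonic globin, was at 4472 and 4787 FPKM in K01 with DMSO and 1233 and 1255 FPKM in K18, while KLF1, an erythroid transcription factor, was at 74.7 and 77.0 FPKM with DMSO, 35.0 and 29.3 FPKM with TETi76 and 82.5 and 86.3 FPKM in K18. The 10 myelomonocytic markers summed to 47.6 to 56.0 FPKM in K01 without TETi76, 59.1 to 74.3 with it and 57.9 and 76.4 in K18, and to 23727 to 23832 CPM in SIGM5 with DMSO and 20363 to 21112 CPM with TETi76. Of the 10 in SIGM5, edgeR called 4 lower with TETi76 (MPO, CTSG, ELANE and AZU1, against 1.54% of all genes). CSF1R was called higher, at 8.80 and 7.44 CPM with DMSO and 16.3 and 13.4 CPM with TETi76, against 2.58% of all genes called higher. SPI1, a myeloid transcription factor, was at 9.49 and 6.23 FPKM in K01 with DMSO, 23.4 and 23.7 FPKM with TETi76 and 14.1 and 13.9 FPKM in K18. With TETi76 in K01 it was the 1 marker called of 7 tested (14.3%, against 9.60% of all genes called higher, limma). LYZ, the highest of the 10 in K562, was at 35.1 and 30.8 FPKM in K01 with DMSO and 35.4 and 30.3 FPKM with TETi76. K18 library 2 stood apart in the granule genes MPO, CTSG, ELANE and PRTN3, at 3.71 to 5.10 FPKM against 0 to 0.529 FPKM in K18 library 1. Of the 5 stromal or epithelial markers, KRT19 was at 58.6 to 78.4 FPKM in K01 without TETi76, 167 to 192 with it and 125 and 126 in K18, and EPCAM at 41.7 and 49.4 FPKM with DMSO, 41.4 and 38.0 FPKM with TETi76 and 22.6 and 22.6 FPKM in K18. The 4 lymphoid markers summed to at most 1.53 FPKM. The part of these shifts in the results below was not tested, and in bulk RNA fewer cells of a type and less RNA per cell cannot be told apart.

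In untreated K01 the most abundant transcript per length was GAPDH, at 1381 and 1354 FPKM, followed by ENO1 (949 and 941 FPKM) and ALDOA (962 and 896 FPKM), whose libraries overlapped. LDHB, the heart-type lactate dehydrogenase subunit, was at 587 and 557 FPKM, above LDHA, the muscle-type subunit, at 318 and 304 FPKM. Isozyme choice was uneven at most steps. HK1 made up 95.8% ± 0.678 (SD, n = 2) of the summed HK1 and HK2 level, ALDOA 96.1% ± 0.110 of ALDOA and ALDOC, and ENO1 98.9% ± 0.0380 of ENO1 and ENO2. ENO3, not counted in that share, was at 4.94 and 5.11 FPKM. At the phosphofructokinase step PFKL and PFKP were close, at 47.1% ± 1.22 and 41.1% ± 0.272 of the 3 subunits. The lowest members were SLC16A3 (0.916 and 1.10 FPKM), NDRG1 (0.338 and 0.640 FPKM), ADM (0 and 0.295 FPKM) and CA9 (0 and 0.101 FPKM). From the value of 1 read, ADM rested on 0 and 3 reads there, CA9 on 0 and 1, and ANKRD37 on 14 and 3.

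**Figure D1:**
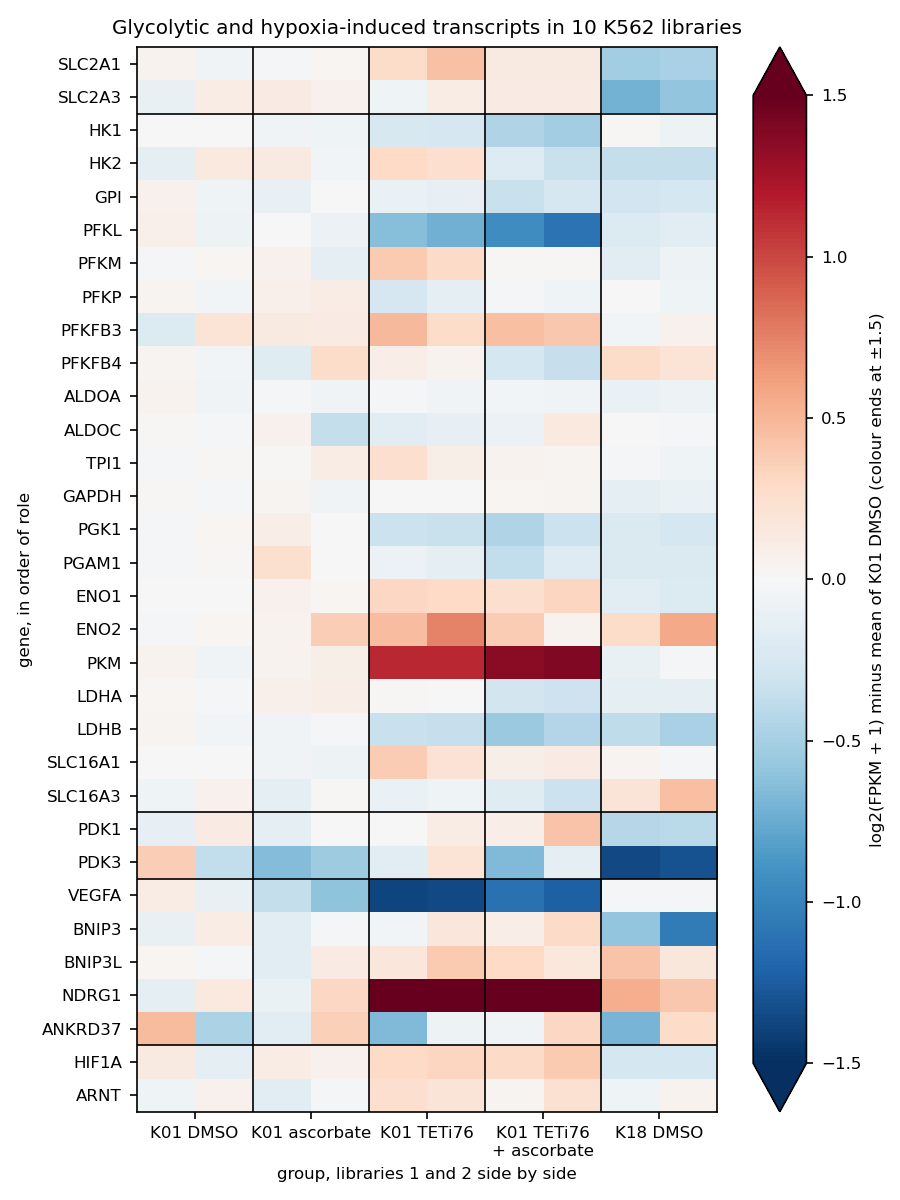
Colour gives log2(FPKM + 1) minus the mean of the K01 DMSO libraries for the 32 members tested in K562 (rows, in order of role) in each of 10 libraries (columns, paired by group). PKM and NDRG1 are red and PFKL and VEGFA blue in all 4 libraries given TETi76, and the glucose carriers SLC2A1 and SLC2A3, with PDK3 and BNIP3, are blue in both K18 libraries.

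TETi76 moved the pathway's steps in K01 in different directions. Of 32 members tested, 7 rose (21.9%), against 9.60% of the 12540 genes tested, and 5 fell (15.6%), against 13.7% of all genes. One of the 7, NDRG1, passed the expression filter mainly through the TETi76 libraries, which leaves 6 without it. The median log2 change of the members was 0.04, and that of all genes was -0.01. All adjusted p-values for K562 are from limma on log2(FPKM + 1) with Benjamini-Hochberg adjustment over all genes tested, two-sided, with a threshold of 0.05. ADM and CA9 did not reach 1 FPKM in 2 libraries and were not tested.

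Uptake and the first committed steps showed opposite changes. SLC2A1 (GLUT1), the basal glucose carrier, was at 52.6 and 49.1 FPKM with DMSO and at 61.6 and 69.6 FPKM with TETi76. Its groups did not overlap, and it rose by 0.36 on the log2 scale (SE 0.08, adjusted p = 0.0104). SLC2A3 (GLUT3), the high-affinity carrier, overlapped between groups, with 35.6 and 41.7 FPKM against 36.8 and 41.9 FPKM. HK1, the housekeeping hexokinase that traps glucose as glucose 6-phosphate, was at 205 and 203 FPKM with DMSO and at 173 and 171 FPKM with TETi76. It fell by 0.24 on the log2 scale (SE 0.05, adjusted p = 0.0107). HK2, the inducible hexokinase, was at 7.94 and 9.96 FPKM against 11.2 and 10.8 FPKM, and its change was not called (adjusted p = 0.180). SLC2A1 lost its call without DMSO library 2 (adjusted p = 0.0747) or TETi76 library 2 (0.0749), and HK1 without DMSO library 1 (0.0566), without TETi76 library 2 (0.0575) or after quantile normalization (0.0506).

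At phosphofructokinase, which commits hexose to glycolysis, transcripts of PFKL and PFKM moved in opposite directions. PFKL, the liver-type subunit, fell from 58.5 and 52.4 FPKM to 35.3 and 33.1 FPKM, a log2 change of -0.68 (SE 0.09, adjusted p = 0.000863). PFKM, the muscle-type subunit, was at 13.6 and 14.1 FPKM with DMSO and at 18.5 and 17.2 FPKM with TETi76, a log2 change of 0.34 (SE 0.11, adjusted p = 0.0450). Neither subunit's groups overlapped. PFKP, the platelet-type subunit, was at 49.8 and 46.7 FPKM against 40.4 and 43.4 FPKM (log2 change -0.20, adjusted p = 0.0793). The share of PFKL in the 3 subunits went from 47.1% ± 1.22 to 36.4% ± 1.498 (SD, n = 2) and that of PFKM from 11.8% ± 0.949 to 18.98% ± 0.882, given as description without a test. The call of PFKM was lost in 7 of 10 alternatives, including each omission of 1 library: adjusted p was 0.176 and 0.120 without DMSO library 1 or 2, and 0.187 and 0.0912 without TETi76 library 1 or 2. PFKFB3 and PFKFB4, which make and degrade the phosphofructokinase activator fructose 2,6-bisphosphate, were at 4.21 to 7.42 FPKM and 4.77 to 5.38 FPKM over these 4 libraries and were not called.

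**Figure D2:**
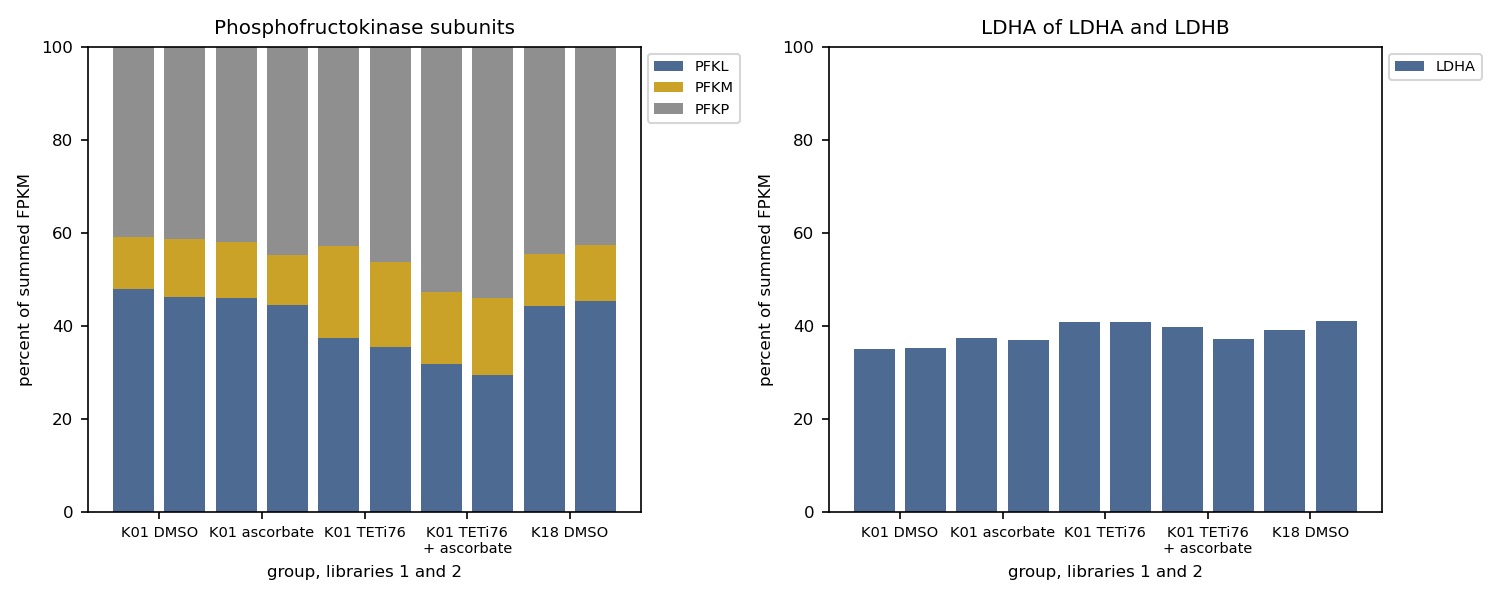
Bars give the percent of summed FPKM in each of 10 K562 libraries for the 3 phosphofructokinase subunits (left, stacked to 100) and for LDHA within LDHA and LDHB (right). PFKL takes 47.1% on average in K01 with DMSO, 36.4% with TETi76 and 30.7% with TETi76 and ascorbate, and LDHA 35.2%, 40.9% and 38.5%.

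Among the later, ATP-forming steps, PKM showed the highest rise. PKM, which makes pyruvate from phosphoenolpyruvate and whose muscle-type isoforms M1 and M2 are not separated in gene-level values, was at 232 and 215 FPKM with DMSO and at 492 and 492 FPKM with TETi76. The groups were far apart, and PKM rose by 1.13 on the log2 scale (SE 0.05, adjusted p = 1.77e-06), a 2.20-fold change. As a share of the summed FPKM of the 17 glycolytic and lactate dehydrogenase genes, PKM went from 4.20% and 4.01% to 8.53% and 8.64%. ENO1, the main enolase, rose from 949 and 941 FPKM to 1175 and 1164 FPKM (log2 change 0.31, SE 0.04, adjusted p = 0.000749). ENO2, the neuronal enolase, was at 10.0 and 10.4 FPKM against 14.5 and 17.8 FPKM (0.61, SE 0.17, adjusted p = 0.0309). PGK1, the first ATP-forming enzyme, was at 167 and 173 FPKM with DMSO and at 136 and 134 FPKM with TETi76 and fell by 0.33 (SE 0.06, adjusted p = 0.00537). The adjacent enzyme GAPDH stayed at 1364 and 1366 FPKM with TETi76 against 1381 and 1354 FPKM with DMSO, a log2 change of -0.00 (SE 0.04, adjusted p = 0.979).

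The remaining enzymes ALDOA, ALDOC, TPI1, PGAM1 and GPI had log2 changes between -0.14 (ALDOC) and 0.17 (TPI1), none called. PGK1 lost its call under quantile normalization (adjusted p = 0.0574). ENO2 lost its call without DMSO library 1 or 2 (0.126 and 0.0993), without TETi76 library 2 (0.169) and with no filter on low values (0.0602). Reads of GAPDH, ENO1, PGK1, TPI1, PGAM1, LDHA and LDHB can be shared with processed pseudogenes, so their levels carry that uncertainty.

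At the end of the pathway, LDHB fell from 587 and 557 FPKM to 454 and 451 FPKM (log2 change -0.34, SE 0.06, adjusted p = 0.00315), while LDHA was at 318 and 304 FPKM with DMSO and 314 and 311 FPKM with TETi76 (0.01, adjusted p = 0.910). The LDHA share of the pair was 35.2% ± 0.149 with DMSO and 40.9% ± 0.0181 with TETi76 (SD, n = 2). SLC16A1 (MCT1), which carries lactate and pyruvate with a proton, went from 53.8 and 54.3 FPKM to 70.4 and 63.0 FPKM (0.30, SE 0.07, adjusted p = 0.0176). SLC16A3 (MCT4), the hypoxia-induced lactate exporter, stayed at or under 1.10 FPKM in both groups. SLC16A1 lost its call without DMSO library 1 or 2 (0.0833 and 0.0726) or TETi76 library 1 (0.115). PDK1 and PDK3, kinases that switch off pyruvate dehydrogenase, were at 4.26 and 5.28 FPKM and 3.07 and 1.43 FPKM with DMSO, overlapped the TETi76 libraries and were not called.

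The hypoxia-induced members did not move together. VEGFA, the endothelial growth factor, was at 60.5 and 51.5 FPKM with DMSO and at 20.8 and 21.3 FPKM with TETi76. It fell by 1.37 on the log2 scale (SE 0.11, adjusted p = 3.66e-05). NDRG1, a stress- and differentiation-responsive gene also induced by hypoxia, was at 0.338 and 0.640 FPKM with DMSO and at 4.35 and 5.31 FPKM with TETi76. It rose by 1.97 (SE 0.23, adjusted p = 0.000445), a change that the added 1 FPKM understates: with a pseudocount of 0.1 FPKM it was 3.11. NDRG1 passed the expression filter through the TETi76 groups and 1 K18 library, so that its presence among the tested genes was not independent of its rise. With no filter on low values its adjusted p was 0.00136. BNIP3 and BNIP3L, mitophagy receptors, were at 22.4 and 26.4 FPKM against 23.6 and 27.4 FPKM, and at 22.6 and 21.6 FPKM against 24.9 and 29.3 FPKM, and neither was called. ANKRD37 rested on 2 to 14 reads per library and was not called.

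HIF1A, the regulated subunit, was at 13.7 and 11.3 FPKM with DMSO and at 15.5 and 15.9 FPKM with TETi76 (log2 change 0.31, SE 0.11, adjusted p = 0.0771). ARNT was at 13.8 and 15.2 FPKM against 17.5 and 16.7 FPKM (0.23, adjusted p = 0.181). For both genes the TETi76 libraries lay above the DMSO libraries without passing the threshold. ADM, a vasodilator peptide gene, had 0 and 3 reads with DMSO and 4 and 0 with TETi76. CA9, the pH-regulating carbonic anhydrase, had 0 and 1 reads against 0 and 0, too few to compare.

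**Figure D3:**
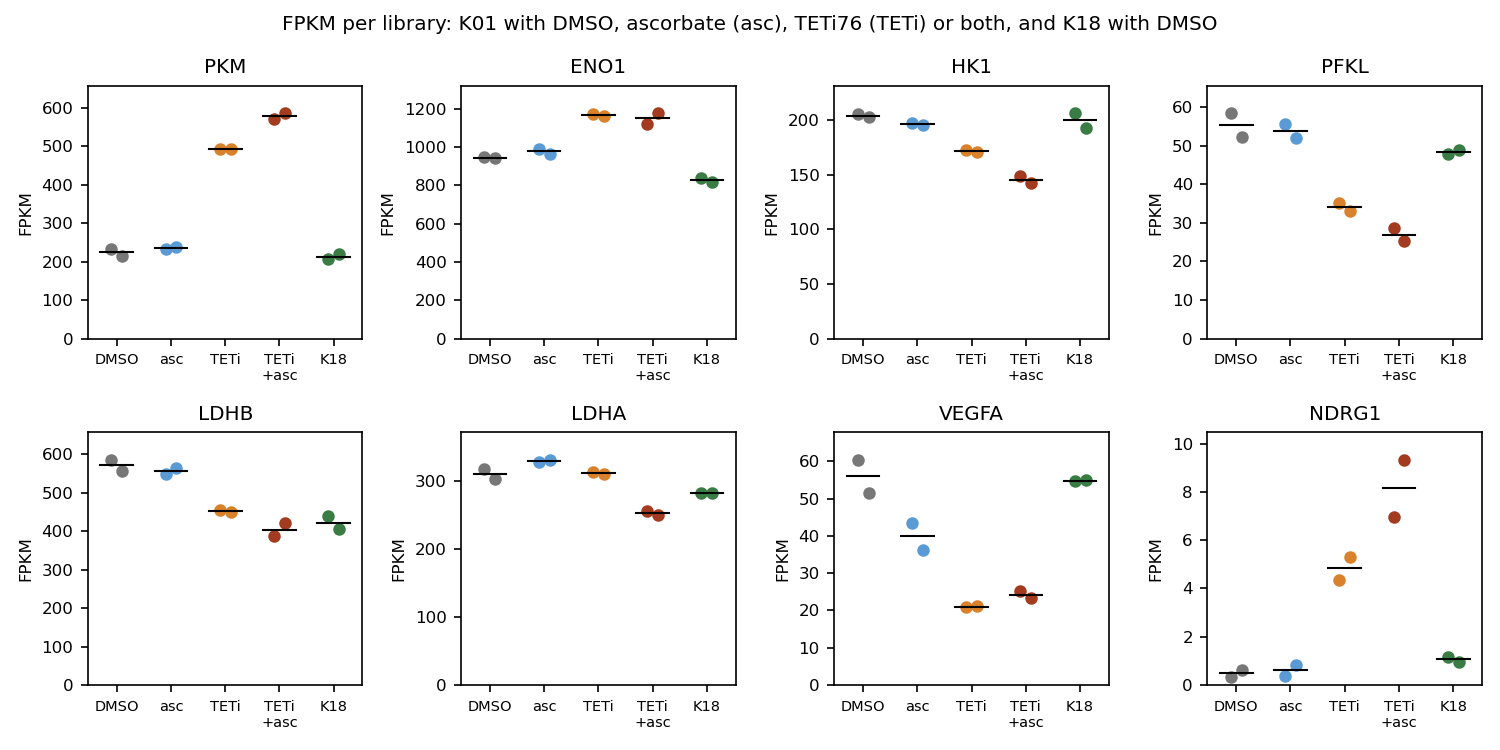
Points are FPKM in each library and bars the mean of 2 libraries for 8 members, in K01 with DMSO, ascorbate, TETi76 or both, and in K18 with DMSO, on linear axes from 0. PKM, ENO1 and NDRG1 lie higher and HK1, PFKL, LDHB and VEGFA lower in all 4 TETi76 libraries than in the 4 other K01 libraries, while LDHA is lowest where TETi76 and ascorbate were combined (257 and 250 FPKM).

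The same compound was tested again in K01 with ascorbate in both arms, a comparison that shares no library with the first. Ascorbate is a reducing cofactor for 2-oxoglutarate-dependent dioxygenases. Of 32 members, 3 rose, NDRG1 again among them, against 12.8% of all genes tested, and 8 fell, against 17.8%. The 8 members called in both comparisons were HK1, PFKL, PGK1, ENO1, PKM, LDHB, VEGFA and NDRG1, which is 66.7% of the 12 called in the first and 72.7% of the 11 called in the second, and all 8 had the same direction. Of all genes, 23.3% were called in the first comparison and 30.7% in the second. The share of all genes called in both was not computed, so the overlap cannot be read as particular to the members. NDRG1 passed the expression filter mainly through the TETi76 libraries.

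PKM rose from 232 and 238 FPKM with ascorbate to 572 and 586 FPKM with ascorbate and TETi76, a log2 change of 1.30 (SE 0.05, adjusted p = 8.58e-07). It then took 10.3% and 10.3% of the summed FPKM of the 17 enzyme genes. NDRG1 rose from 0.388 and 0.833 FPKM to 6.94 and 9.34 FPKM (2.51, SE 0.23, adjusted p = 7.53e-05), and ENO1 from 989 and 967 FPKM to 1122 and 1178 FPKM (0.23, SE 0.04, adjusted p = 0.00231). PFKL fell from 55.7 and 52.0 FPKM to 28.6 and 25.3 FPKM (-0.97, SE 0.09, adjusted p = 7.44e-05). None of these groups overlapped.

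HK1 fell from 197 and 195 FPKM to 148 and 142 FPKM (-0.43, SE 0.05, adjusted p = 0.000387), PGK1 from 183 and 171 FPKM to 124 and 135 FPKM (-0.45, SE 0.06, adjusted p = 0.000747), and LDHB from 550 and 565 FPKM to 388 and 421 FPKM (-0.46, SE 0.06, adjusted p = 0.000386). VEGFA, already at 43.5 and 36.3 FPKM with ascorbate, fell to 25.2 and 23.3 FPKM (-0.69, SE 0.11, adjusted p = 0.00143). The falls of LDHA, PGAM1 and GPI were called here and not in the first comparison. LDHA went from 328 and 332 FPKM to 257 and 250 FPKM (-0.38, SE 0.05, adjusted p = 0.000321). PGAM1, the mutase between PGK1 and enolase, was at 151 and 128 FPKM against 98.3 and 111 FPKM (-0.41, SE 0.09, adjusted p = 0.00689), and GPI, the hexose phosphate isomerase, at 91.6 and 98.7 FPKM against 78.3 and 82.9 FPKM (-0.24, SE 0.07, adjusted p = 0.0301).

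After quantile normalization GPI and PGAM1 lost their calls (adjusted p = 0.759 and 0.102), and SLC2A1 and SLC16A1 gained one as higher (0.0163 and 0.00676). GPI also lost its call without ascorbate library 2 (0.159), without combination library 1 (0.130) and in a fit of the compared groups alone (0.0757).

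**Figure D4:**
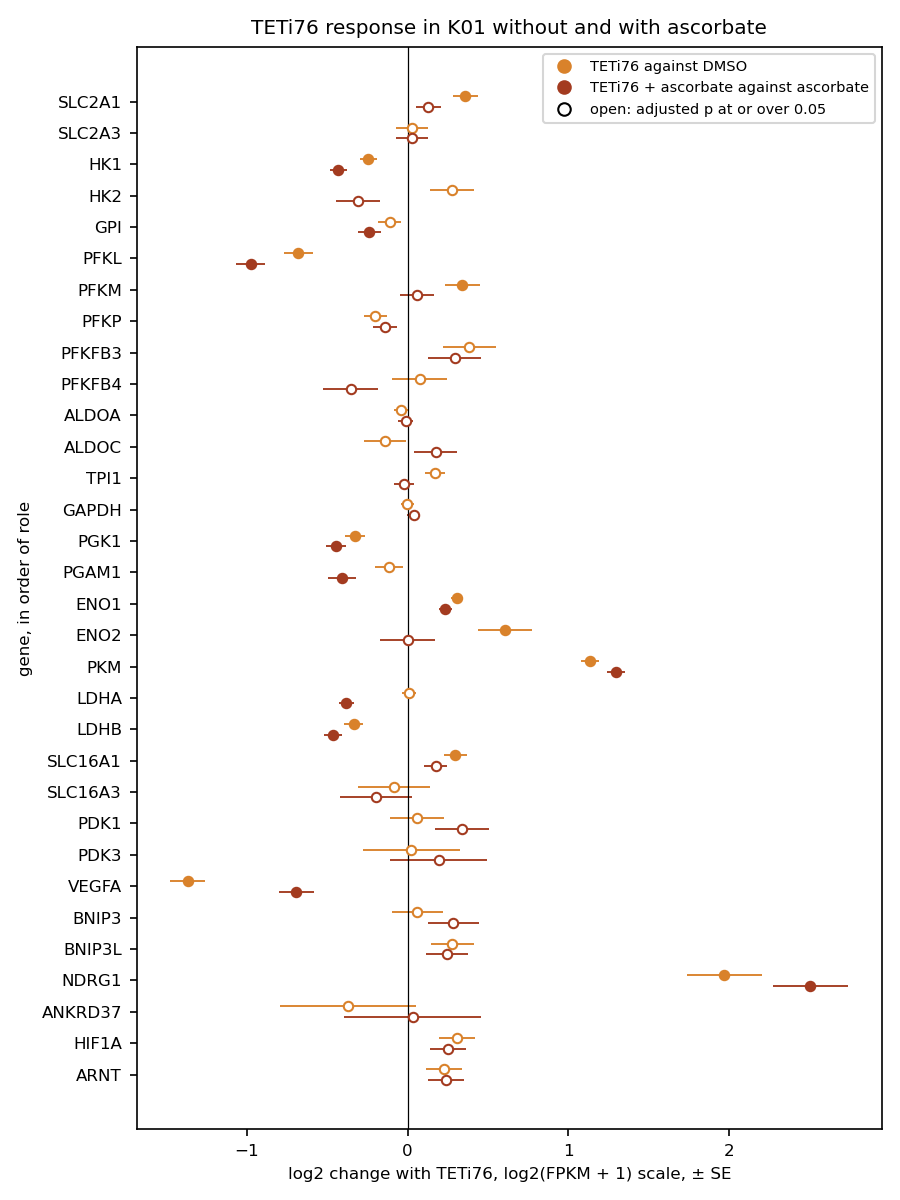
Points are log2 changes with TETi76 in K01 (± SE, log2(FPKM + 1) scale) for 32 members, without ascorbate (orange) and with ascorbate in both arms (dark red), filled where the adjusted p is under 0.05. PKM (1.13 and 1.30) and NDRG1 (1.97 and 2.51) lie to the right and VEGFA (-1.37 and -0.69) and PFKL (-0.68 and -0.97) to the left in both, and LDHA moves from 0.01 to -0.38.

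Ascorbate alone called 0 of 32 members (limma), against 0.478% of all genes called. At an unadjusted p under 0.05 there was 1 member, without a share of all genes computed at that level. That member was VEGFA, which was at 43.5 and 36.3 FPKM with ascorbate and 60.5 and 51.5 FPKM with DMSO (log2 change -0.48, SE 0.11, adjusted p = 0.131). Its libraries did not overlap, but the change did not pass the threshold. PKM was at 232 and 238 FPKM with ascorbate, just above its DMSO libraries (232 and 215 FPKM), and was not called.

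Ascorbate added to TETi76 gave 1 called member, LDHA, which fell by 0.30 (SE 0.05, adjusted p = 0.0314), against 0.734% of all genes called in either direction and 0.486% called lower. The interaction of TETi76 with ascorbate, the test of whether the TETi76 response differed, also called LDHA alone (-0.39, SE 0.06, adjusted p = 0.0424), against 0.630% of all genes called in either direction and 0.351% called lower. The call was lost in 12 of 14 alternatives, where adjusted p ran up to 0.127, and in every omission of 1 library: 0.0783 and 0.123 without DMSO library 1 or 2, 0.127 and 0.105 without TETi76 library 1 or 2, 0.111 and 0.123 without ascorbate library 1 or 2, and 0.0571 and 0.0884 without combination library 1 or 2. The fall of LDHA on adding ascorbate likewise lost its call without TETi76 library 1 or 2 (0.148 and 0.149) and without combination library 1 or 2 (0.0572 and 0.105). VEGFA had an interaction of 0.68 (SE 0.15, adjusted p = 0.103), so a smaller fall with ascorbate was not established. PKM had an interaction of 0.16 (SE 0.08, adjusted p = 0.404) and NDRG1 of 0.54 (SE 0.33, adjusted p = 0.540).

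The TET2-/- clone K18 had lower levels of both glucose carriers and of LDHB than K01. With DMSO in both clones, 0 of 32 members were higher in K18 (against 6.86% of all genes) and 8 were lower (25.0%, against 8.21% of all genes), or 7 leaving out PDK3, which passed the expression filter only through K01 libraries. Of the 32 members, 25 had a log2 difference below 0, with a median of -0.12 against 0.00 for all genes. The members' median was not recomputed after quantile normalization. There GPI and PGK1 were at -0.16 and -0.11 and lost their calls, while LDHB, SLC2A1 and SLC2A3 kept theirs. How far the median depends on scaling was not tested. The DMSO libraries of K01 serve here and in the TETi76 and ascorbate comparisons above, so their errors are shared. K18 was not given TETi76 in these libraries.

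SLC2A3 was at 35.6 and 41.7 FPKM in K01 and at 23.2 and 25.1 FPKM in K18 (log2 difference -0.65, SE 0.10, adjusted p = 0.00259), and SLC2A1 at 52.6 and 49.1 FPKM against 35.2 and 35.9 FPKM (-0.50, SE 0.08, adjusted p = 0.00279). LDHB was at 587 and 557 FPKM against 439 and 406 FPKM (-0.44, SE 0.06, adjusted p = 0.00114). These 3 genes kept their calls in each of 10 alternatives. SLC2A3 reads can be shared with its near-identical neighbour SLC2A14, so its level is uncertain in that respect.

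BNIP3 was at 22.4 and 26.4 FPKM in K01 and 15.8 and 11.2 FPKM in K18 (-0.82, SE 0.16, adjusted p = 0.00852). PDK3 was at 3.07 and 1.43 FPKM against 0.230 and 0.268 FPKM (-1.33, SE 0.30, adjusted p = 0.0177), and with no filter on low values its adjusted p was 0.0300. Because PDK3 was tested only through the clone in which it is high, its place among the tested genes was not independent of the difference. Smaller differences were called for ENO1, at 949 and 941 FPKM against 840 and 818 FPKM (-0.19, SE 0.04, adjusted p = 0.0132), for GPI, at 104 and 94.5 FPKM against 81.0 and 82.6 FPKM (-0.27, SE 0.07, adjusted p = 0.0294), and for PGK1, at 167 and 173 FPKM against 146 and 142 FPKM (-0.24, SE 0.06, adjusted p = 0.0312). PKM did not separate the clones, with 206 and 220 FPKM in K18 inside or near the K01 range (-0.07, adjusted p = 0.466), nor did VEGFA, with 54.6 and 55.0 FPKM (-0.03, adjusted p = 0.908).

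The count of 8 fell to 4 without K01 DMSO library 1, 6 without K01 DMSO library 2, 4 without K18 library 1 and 3 without K18 library 2. BNIP3 was lost without K01 library 2 (adjusted p = 0.0699) or K18 library 2 (0.0639). ENO1 was lost without K01 library 1 (0.0562) and K18 library 1 or 2 (0.0542 and 0.110), GPI in the same 3 omissions (0.169, 0.143 and 0.119), PDK3 likewise (0.122, 0.0940 and 0.0926), and PGK1 in all 4 (0.0838, 0.153, 0.104 and 0.171). Quantile normalization also ended the calls of GPI (0.177) and PGK1 (0.317).

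SIGM5 responded to the same dose and time in few members. Of 33 tested, 2 rose, against 2.58% of all 11340 genes, and 0 fell, against 1.54% (4.13% in either direction), by edgeR's quasi-likelihood test with Benjamini-Hochberg adjustment over all genes. One of the 2, ADM, passed the count filter through the TETi76 libraries, which leaves 1 without it. At an unadjusted p under 0.05 there were 6, without a share of all genes computed at that level. The median log2 change was 0.08 against 0.00 for all genes. SIGM5 values are CPM, which are not scaled by length and are not compared between genes.

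PKM was again higher: it went from 1407 and 1280 CPM with DMSO to 1866 and 1855 CPM with TETi76, with no overlap, and rose by 0.47 on the log2 scale (SE 0.09, adjusted p = 0.00316), a 1.38-fold change. ADM rose from 1 and 6 counts to 26 and 18 counts (2.39, SE 0.67, adjusted p = 0.0435). Its presence among the tested genes was thus not independent of its rise, and the filter of 1 CPM in 2 libraries left PKM as the 1 member called. PKM lost its call without TETi76 library 1 or 2 (adjusted p = 0.0998 and 0.0570). ADM lost its call without DMSO library 1 (0.183), without TETi76 library 1 or 2 (0.645 and 0.153) and with DESeq2 (0.201).

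The other members that differed with TETi76 in K01 were not called in SIGM5. VEGFA was at 10.5 and 12.5 CPM with DMSO and 8.20 and 9.35 CPM with TETi76 (-0.40, SE 0.17, adjusted p = 0.228). HK1 was at 54.2 and 50.1 CPM against 62.8 and 63.9 CPM (0.28, SE 0.12, adjusted p = 0.204), the opposite sign to K01. NDRG1, under 1 FPKM in K01 with DMSO, was at 249 and 240 CPM against 262 and 269 CPM (0.12, SE 0.10, adjusted p = 0.609). PFKL overlapped between groups, at 629 and 504 CPM against 515 and 528 CPM (-0.12, adjusted p = 0.642). SLC16A3 was at 664 and 537 CPM against 717 and 732 CPM (0.27, adjusted p = 0.170) and was called as higher only without DMSO library 1 (0.00141) or with a crossed replicate pairing (0.0256). CA9, not tested, had 4 and 4 counts against 0 and 1.

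**Figure D5:**
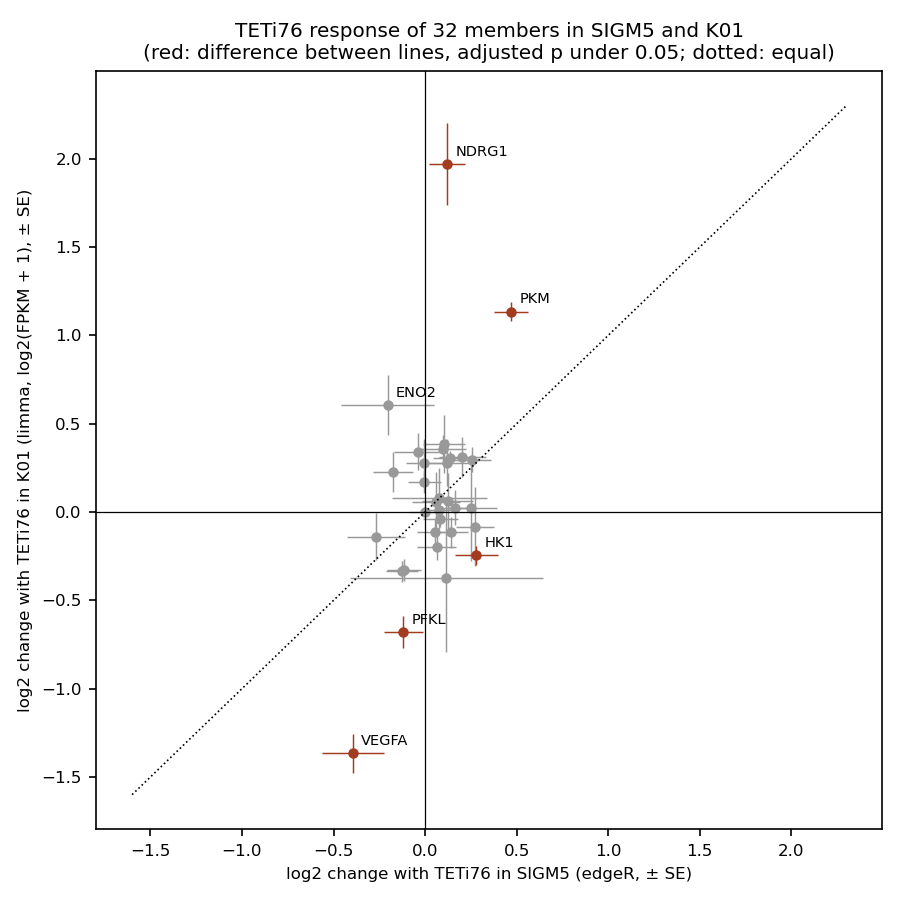
Each point is 1 of 32 members tested in both lines, with its log2 change with TETi76 in SIGM5 (x axis, edgeR) and in K01 (y axis, limma on log2(FPKM + 1)), bars ± SE and a dotted line of equality. The 5 members in red differed between lines: NDRG1 (1.97 in K01 and 0.12 in SIGM5) and PKM (1.13 and 0.47) lie above the line, and VEGFA (-1.37 and -0.40), PFKL (-0.68 and -0.12) and HK1 (-0.24 and 0.28) below it.

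The difference of the TETi76 responses, K01 minus SIGM5, was tested over 9742 genes from the separate fits. It was called for 5 of 32 members: 2 higher (6.25%, against 4.91% of all genes) and 3 lower (9.38%, against 7.12%), shares near those of all genes. NDRG1, among the 2, passed the K562 filter mainly through the TETi76 libraries. NDRG1 had a difference of 1.85 (SE 0.25, adjusted p = 0.000339), PKM of 0.66 (SE 0.11, adjusted p = 5.43e-05), VEGFA of -0.97 (SE 0.20, adjusted p = 0.00121), PFKL of -0.56 (SE 0.14, adjusted p = 0.00754) and HK1 of -0.53 (SE 0.13, adjusted p = 0.00562). The lines were measured in different units and normalized separately, so line and table cannot be told apart. HK1 lost its call without SIGM5 TETi76 library 1 or 2 (0.0838 and 0.0876), and PFKL without SIGM5 TETi76 library 2 (0.0560) or K01 DMSO library 1 (0.0520).

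The gene lists from here on were, like the members, chosen with earlier results of these data known. Of 11 tested genes for the entry of pyruvate into mitochondria, 6 fell with TETi76 in K01 (against 13.7% of all genes) and 0 rose (against 9.60%), with a median log2 change of -0.44 against -0.01 for all genes. They were MPC1, a subunit of the mitochondrial pyruvate carrier, PDHA1, PDHB, DLAT and DLD of the pyruvate dehydrogenase complex, and PC, pyruvate carboxylase. MPC1 went from 79.4 and 81.3 FPKM to 53.7 and 54.5 FPKM (-0.56, SE 0.09, adjusted p = 0.00215), DLD from 60.3 and 58.3 FPKM to 40.1 and 39.8 FPKM (-0.56, SE 0.08, adjusted p = 0.00123), and PC from 10.4 and 8.62 FPKM to 5.43 and 6.40 FPKM (-0.60, SE 0.17, adjusted p = 0.0320). The call of PC was lost in each omission of 1 library, where adjusted p was 0.178 and 0.0570 for DMSO and 0.155 and 0.0609 for TETi76.

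With ascorbate in both arms, the same 6 and MPC2, the other carrier subunit, fell, or 63.6% of the 11 against 17.8% of all genes. PDHA1, the catalytic alpha subunit, was at 57.6 and 55.7 FPKM with ascorbate and 36.1 and 32.8 FPKM with both (-0.70, SE 0.07, adjusted p = 0.000155), and MPC1 at 74.1 and 89.4 FPKM against 51.9 and 48.7 FPKM (-0.68, SE 0.09, adjusted p = 0.000491). The count of 7 fell to 4 without ascorbate library 1 or 2. In SIGM5, 0 of 11 were called by edgeR and 0 had an unadjusted p under 0.05. K18 was lower in 1 of 11 (9.09%, against 8.21% of all genes), PDHA1, at 42.7 and 42.1 FPKM against 53.2 and 54.0 FPKM in K01 (-0.33, SE 0.07, adjusted p = 0.0173), a call lost on leaving out each of the 4 libraries in turn (K01 0.0738 and 0.0937, K18 0.0828 and 0.107).

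Among 17 further tested genes of glycolysis in K01, 5 fell (29.4%, against 13.7% of all genes) and 0 rose (against 9.60%) with TETi76. PKLR, the liver and red cell pyruvate kinase, fell from 60.6 and 51.4 FPKM to 17.5 and 13.9 FPKM (-1.78, SE 0.12, adjusted p = 1.30e-05), opposite in direction to PKM. TXNIP, an arrestin-like inhibitor of glucose uptake, fell from 131 and 128 FPKM to 65.1 and 66.9 FPKM (-0.96, SE 0.06, adjusted p = 1.26e-05). ENO3, the muscle enolase, was at 4.94 and 5.11 FPKM against 1.85 and 2.68 FPKM (-0.89, SE 0.21, adjusted p = 0.0139) and lost its call without DMSO library 1 or 2 (0.0640 and 0.0738) or TETi76 library 1 (0.0869). The count of 5 was 3 without DMSO library 1 or TETi76 library 1 and 2 without DMSO library 2.

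With ascorbate in both arms, 3 of 17 fell (17.6%, near the 17.8% of all genes), among them PKLR (43.97 and 40.8 FPKM against 15.5 and 15.0 FPKM, -1.42, SE 0.12, adjusted p = 3.94e-05) and TXNIP (114 and 107 FPKM against 67.0 and 71.2 FPKM, -0.67, SE 0.06, adjusted p = 8.45e-05). In K18, 3 of 17 were lower (17.6%, against 8.21% of all genes): TXNIP, at 87.9 and 91.1 FPKM (-0.53, SE 0.06, adjusted p = 0.000686), PGM2, a phosphopentomutase, at 19.2 and 18.2 FPKM against 25.7 and 23.3 FPKM (-0.37, SE 0.10, adjusted p = 0.0355), and BSG, the chaperone of the lactate carriers, at 280 and 314 FPKM against 349 and 343 FPKM (-0.22, SE 0.06, adjusted p = 0.0369). PGM2 was lost on leaving out each of the 4 libraries in turn (K01 0.187 and 0.0748, K18 0.106 and 0.189), and BSG without either K01 library (0.139 and 0.112) or K18 library 1 (0.237).

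In SIGM5, 2 of 21 of these genes rose (against 2.58% of all genes) and 1 fell (against 1.54%), by edgeR. SLC2A6, a lysosomal member of the glucose carrier family, went from 16.2 and 15.4 CPM to 24.5 and 28.4 CPM (0.74, SE 0.14, adjusted p = 0.00222). ARRDC4, a relative of TXNIP, went from 3.11 and 3.49 CPM to 5.86 and 6.91 CPM (0.95, SE 0.22, adjusted p = 0.0145). SLC2A6 lost its call without TETi76 library 2 (0.119), and ARRDC4 without TETi76 library 1 or 2 (0.114 and 0.228) and with DESeq2 (0.0667). The count of 3 ranged from 0 without TETi76 library 2, and 1 without TETi76 library 1, to 7 without DMSO library 2.

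Of 34 other hypoxia-induced genes tested in K01, 6 were higher (17.6%, against 9.60% of all genes) and 3 lower (8.82%, against 13.7%) with TETi76. The 9 called in either direction are a share near the 23.3% of all genes. BHLHE40, a transcriptional repressor, rose from 39.0 and 34.3 FPKM to 73.0 and 68.0 FPKM (0.93, SE 0.08, adjusted p = 7.21e-05), and KDM3A, a histone demethylase, from 11.2 and 10.9 FPKM to 20.4 and 20.9 FPKM (0.85, SE 0.13, adjusted p = 0.00219). P4HA2, a collagen prolyl hydroxylase subunit, was at 8.18 and 9.77 FPKM against 11.9 and 15.4 FPKM (0.55, SE 0.15, adjusted p = 0.0253). DDIT4, an inhibitor of mTORC1, fell from 437 and 441 FPKM to 46.8 and 46.5 FPKM (-3.21, SE 0.10, adjusted p = 2.28e-07). STC2, a secreted glycoprotein, fell from 13.4 and 10.9 FPKM to 3.05 and 2.45 FPKM (-1.81, SE 0.15, adjusted p = 5.62e-05), and CITED2, a competitor of HIF for its coactivators, from 35.2 and 38.4 FPKM to 24.0 and 23.1 FPKM (-0.62, SE 0.12, adjusted p = 0.00657). P4HA2 lost its call without DMSO library 1 (0.15) or TETi76 library 2 (0.157), and CITED2 without DMSO library 2 (0.0513), where the count of 9 became 5.

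With ascorbate in both arms, 6 of 34 were higher (17.6%, against 12.8% of all genes) and 4 lower (11.8%, against 17.8%). HILPDA, a lipid droplet protein, rose from 2.56 and 3.02 FPKM to 9.80 and 8.41 FPKM (1.42, SE 0.22, adjusted p = 0.00134), and KDM3A from 10.0 and 13.8 FPKM to 24.2 and 25.6 FPKM (1.02, SE 0.13, adjusted p = 0.000537). DDIT4 fell from 405 and 380 FPKM to 57.4 and 74.1 FPKM (-2.57, SE 0.10, adjusted p = 5.37e-07), and STC2 from 8.60 and 7.95 FPKM to 2.96 and 2.61 FPKM (-1.29, SE 0.15, adjusted p = 0.000303). In SIGM5, edgeR called 0 of 31, of which 7 had an unadjusted p under 0.05, a level at which the share of all genes was not computed.

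TFRC, the transferrin receptor of iron uptake, was at 88.8 and 85.8 FPKM with DMSO, 117 and 112 FPKM with ascorbate, 104 and 99.3 FPKM with TETi76 and 69.2 and 69.7 FPKM with both. With TETi76 against DMSO it was called higher (limma, adjusted p = 0.0270), a call lost in 5 of 10 alternatives. With ascorbate in both arms TETi76 gave a call as lower (adjusted p = 3.41e-05), lost in 0 of 10 alternatives. TFRC rose with ascorbate alone (0.39, SE 0.06, adjusted p = 0.0284) and fell when ascorbate was added to TETi76 (-0.54, SE 0.06, adjusted p = 0.0108). The interaction was called (-0.93, SE 0.08, adjusted p = 0.0106). The rise with ascorbate lost its call in each omission (0.152 and 0.208 without DMSO library 1 or 2, 0.197 and 0.124 without ascorbate library 1 or 2). The fall lost its call without TETi76 library 1 or 2 (0.0889 and 0.0540) or combination library 2 (0.0675), and the interaction without TETi76 library 1 (0.0520) or ascorbate library 2 (0.0515).

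In K18, 3 of 34 of the other hypoxia-induced genes were higher (8.82%, against 6.86% of all genes) and 2 lower (5.88%, against 8.21%) than in K01. One of the 3, CA12, a carbonic anhydrase, was at 3.12 and 2.52 FPKM in K18 and at most 0.532 FPKM in the other libraries, and it passed the filter only through K18, which leaves 2 higher without it. BHLHE40 was at 57.8 and 56.0 FPKM against 39.0 and 34.3 FPKM (0.62, SE 0.08, adjusted p = 0.00114), and TFRC at 116 and 114 FPKM against 88.8 and 85.8 FPKM (0.40, SE 0.06, adjusted p = 0.00219). GBE1, the glycogen branching enzyme, was at 4.87 and 5.51 FPKM against 8.53 and 9.23 FPKM (-0.68, SE 0.13, adjusted p = 0.00749), and RIOK3, a kinase, at 28.8 and 30.3 FPKM against 38.7 and 41.4 FPKM (-0.43, SE 0.08, adjusted p = 0.00590). Both were lost without K01 library 2 (0.0593 and 0.0535) or K18 library 1 (0.0646 and 0.0532), and the count of 5 became 2 without K18 library 1.

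Of 15 tested genes that regulate HIF, 5 rose (33.3%, against 9.60% of all genes) and 4 fell (26.7%, against 13.7%) in K01 with TETi76. EPAS1, the HIF-2 alpha subunit, rose from 3.62 and 3.60 FPKM to 8.32 and 9.55 FPKM (1.11, SE 0.15, adjusted p = 0.00108). EP300, a coactivator, was at 12.4 and 11.2 FPKM against 16.4 and 16.7 FPKM (0.46, SE 0.12, adjusted p = 0.0201), and ELOC, a partner of VHL, at 30.9 and 27.5 FPKM against 38.0 and 41.5 FPKM (0.43, SE 0.11, adjusted p = 0.0213). VHL fell from 46.1 and 51.1 FPKM to 28.9 and 34.04 FPKM (-0.61, SE 0.10, adjusted p = 0.00306), and SIAH2, a ubiquitin ligase for prolyl hydroxylases, from 16.8 and 17.4 FPKM to 10.97 and 10.96 FPKM (-0.60, SE 0.10, adjusted p = 0.00264). EGLN2, the prolyl hydroxylase PHD1, was at 59.2 and 54.6 FPKM against 42.2 and 40.6 FPKM (-0.45, SE 0.11, adjusted p = 0.0192). EGLN2 was lost on leaving out each library in turn (DMSO 0.112 and 0.0524, TETi76 0.0621 and 0.0904), EP300 without DMSO library 2 (0.118) or TETi76 library 1 or 2 (0.0718 and 0.0877), and ELOC without library 2 of DMSO (0.130) or TETi76 (0.114). The count of 9 became 5 without DMSO library 2 and 4 without TETi76 library 2.

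With ascorbate in both arms, 5 of 15 regulators were higher (33.3%, against 12.8% of all genes) and 3 lower, a share near the 17.8% of all genes. EPAS1 rose from 2.19 and 2.52 FPKM to 7.05 and 8.71 FPKM (1.40, SE 0.15, adjusted p = 0.000186), and CREBBP, the paralogue of EP300, from 6.89 and 7.93 FPKM to 12.6 and 12.7 FPKM (0.70, SE 0.12, adjusted p = 0.00244). EGLN2 fell from 56.2 and 53.1 FPKM to 30.4 and 38.5 FPKM (-0.66, SE 0.11, adjusted p = 0.00227), and SIAH2 from 16.1 and 17.5 FPKM to 10.2 and 10.9 FPKM (-0.62, SE 0.10, adjusted p = 0.00153). The count of 8 became 5 without ascorbate library 1 or combination library 1 or 2.

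K18 was lower in 3 of 15 of these regulators (against 8.21% of all genes). SIAH2 was at 12.2 and 12.4 FPKM (-0.44, SE 0.10, adjusted p = 0.0163), EGLN2 at 45.8 and 41.0 FPKM (-0.38, SE 0.11, adjusted p = 0.0486) and HSP90AB1, a chaperone, at 1100 and 1114 FPKM against 1246 and 1263 FPKM in K01 (-0.18, SE 0.04, adjusted p = 0.00900). SIAH2 and EGLN2 were lost on leaving out each of the 4 libraries in turn (up to 0.0984 and 0.257), and HSP90AB1 without K18 library 1 or 2 (0.0752 and 0.0576) and after quantile normalization (0.422). In SIGM5, edgeR called 0 of 11 regulators, of which 2 had an unadjusted p under 0.05, a level at which the share of all genes was not computed.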

How the data were processed

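Symbols of the 34 members were looked up in both deposited tables, and all were found. The SIGM5 values were raw counts per gene as deposited, all whole numbers. The K562 values were FPKM made by the authors; their quantifier is not given in the sources used here, and FPKM cannot be told apart from RPKM. Per the submitters' processing notes, hg19, STAR, edgeR 3.24.3 and limma 3.38.3 were used, with no roles given. Counting by strand is not given in the sources used here, so overlapping and antisense genes cannot be told apart.

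SIGM5 counts were tested with edgeR 4.0.16 (R 4.3.3; quasi-likelihood, robust, TMM, filterByExpr, 11340 genes), and shown as CPM. For K562, log2(FPKM + 1) entered 1 limma 3.58.1 model of all 10 libraries with trend and robust settings, restricted to 12540 genes that reached 1 FPKM in at least 2 libraries. The pseudocount of 1 understates changes of low genes. In K562, 2245 short-RNA entries and 26 entries with a number for a name were left out. The difference between lines used Satterthwaite degrees of freedom over 9742 genes. P-values are two-sided and adjusted by Benjamini-Hochberg, with a threshold of 0.05 and n = 2 per group. The scripts were tested on simulated data.

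Alternatives were DESeq2 1.42.0, median-ratio scaling, quantile normalization, a pseudocount of 0.1, other filters, the compared groups alone, a replicate block and leaving out each library. K562 depth was estimated from values at up to 0.15 FPKM. The members and lists were chosen with earlier results of these data known. All members are named; for each other list the rule took the 3 largest called changes in each direction (2 outside the TETi76 comparisons against DMSO and K18) whose higher group averaged 5 CPM or FPKM or more. ELOB, ELOC, TIGAR and ERO1A, listed under older symbols in K562, were matched there through RefSeq synonyms. ELOB and ELOC had no match in SIGM5 and were not examined in that line.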

Additional observations from a re-analysis of the deposited data

Results flagged for a closer look

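The TETi76 response differed between the lines for 5 members, by a test of the difference K01 minus SIGM5 (limma and edgeR fits, adjusted over all genes tested in both). The shares called, 6.25% higher and 9.38% lower, were near the 4.91% and 7.12% of all genes. The difference on the log2 scale was 1.85 for NDRG1 (adjusted p = 0.000339), 0.66 for PKM (5.43e-05), -0.97 for VEGFA (0.00121), -0.56 for PFKL (0.00754) and -0.53 for HK1 (0.00562). In K562, NDRG1 reached 1 FPKM only in the 4 TETi76 libraries and 1 K18 library, so its testing was not independent of its rise. Over 11 alternatives the adjusted p ran up to 0.00710 for NDRG1, 0.00248 for PKM and 0.0355 for VEGFA, and up to 0.0560 for PFKL and 0.0876 for HK1.

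The TETi76 response differed with ascorbate for LDHA, with an interaction of -0.39 (limma, adjusted p = 0.0424, up to 0.127 over 14 alternatives), and for TFRC, with -0.93 (0.0106, up to 0.0520). The part of the erythroid, myelomonocytic and stromal or epithelial marker shifts in these differences was not tested.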

How the results depend on the processing

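No result changed direction under any alternative while called. TETi76 in K01 called 8 to 10 members when 1 library was left out (12 with all) and 1669 to 1793 genes; with ascorbate in both arms 10 to 13 members and 2696 to 2919 genes; K18 against K01 3 to 6 members and 720 to 967 genes; the difference between lines 3 to 6 members and 522 to 1486 genes; SIGM5 0 to 2 members and 110 to 1206 genes. Ascorbate alone called 0 members and 0 to 6 genes, ascorbate added to TETi76 0 members and 2 to 62 genes, and the interaction 0 members and 0 to 71 genes. Leaving out a library leaves 1 in its group, assumed to vary like the others. The compared groups alone gave 13 genes for ascorbate, 5 genes and 0 members for ascorbate added to TETi76, and 29 genes and 0 members for the interaction. The interaction also called 0 members after quantile normalization, with no filter (42 genes) and with the replicate block (46 genes). Its higher calls were 44.3% of all, and 58.5% after quantile normalization. In SIGM5, DESeq2 and the filter of 1 CPM in 2 libraries each called 1 member, and no filter gave 738 genes.

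Replicate numbers did not pair the libraries: correlations across genes of the difference between replicates were -0.24 in SIGM5 and -0.02 to 0.05 between K562 groups. The replicate block changed 2 calls of members, PFKM with TETi76 in K01 (adjusted p = 0.0596) and LDHA in the interaction (0.0673). In SIGM5 it gave 444 genes and 2 members. A crossed pairing there, chosen after seeing the data because the correlation was negative, gave 1291 genes and 4 members. The 2 libraries per group limit every test, and the absolute depth of the K562 libraries is not known from FPKM.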
